A study of Mus musculus with 18 samples.

Results

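The genes described here are 10 genes of the melanosome and of pigment synthesis: Tyr, Tyrp1, Dct, Mlana, Oca2, Slc45a2, Slc24a5, Mc1r, Gpr143 and Rab38. They were taken by name from the 22558 genes of the deposited tables, by a rule that uses no measured value, and all 10 were found. RNA was sequenced from RPE/choroid (the retinal pigment epithelium, RPE, together with the vascular choroid behind it) and from retina of mice at postnatal day 30. The mice were homozygous knock-ins of the Abca4 allele L541P;A1038V, Abca4-/- knockouts, or wild type, all of mixed 129SV and C57BL/6 strain. Each genotype and tissue had 3 libraries, 18 in all, and strain alleles at the pigment loci were not examined. No Cre, other transgene or drug treatment is named in the labels. Whether each library is a different animal is not stated there either. Groups with libraries of both sexes, given below, cannot come from a single animal. The p-values of the fits made here rest on the spread among libraries within groups, pooled over the groups of a fit and shared in part across genes. That spread may be technical, in whole or in part.

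Melanin is made inside melanosomes, organelles related to lysosomes. Tyrosinase oxidises tyrosine, 2 related enzymes process the products, and transporters of the melanosome membrane set the conditions in which the enzymes work. In the eye, melanin is made by the RPE, by neural crest melanocytes of the choroid, and by the pigmented layers of iris and ciliary body, while the neural retina makes none. The mouse RPE lays down most of its pigment before and soon after birth.

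Libraries held 14621637 to 30048060 assigned fragments in RPE/choroid and 11553291 to 23579148 in retina. Libraries are named by genotype and by the number 0, 1 or 2 that the tables give them, and values of a group are listed in that order. Abca4, the targeted transporter gene, had 1367 to 1698 CPM (counts per 1000000 fragments, scaled by TMM) in knock-in retina, 563 to 587 CPM in knockout retina and 1738 to 2001 CPM in wild-type retina, and 266 to 302, 188 to 191 and 260 to 433 CPM in RPE/choroid of the same genotypes. By Xist and Y-linked genes, 0 of 3 knock-in, 1 of 3 knockout and 2 of 3 wild-type retinal libraries were male, against 2 of 3, 3 of 3 and 3 of 3 in RPE/choroid. Wild-type RPE/choroid library 2 stood apart by its rod transcripts, which summed to 5903 CPM, against 253 to 1089 CPM in the other RPE/choroid libraries.

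Promoters are shown for the 5 members with a sequence that the results below turn on, because those of the pigment enzymes are known to hold a shared short motif. Of the 10 genes, 6 had a promoter in the RefSeq table of build GRCm38.p6, which covers 250 bases before to 50 bases after the gene's start. Capitals mark CATGTG or its reverse complement CACATG, the hexamer at the core of the M-box, an element known from the promoters of Tyr, Tyrp1 and Dct.
Tyr (chr7:87493463-87493762, minus strand): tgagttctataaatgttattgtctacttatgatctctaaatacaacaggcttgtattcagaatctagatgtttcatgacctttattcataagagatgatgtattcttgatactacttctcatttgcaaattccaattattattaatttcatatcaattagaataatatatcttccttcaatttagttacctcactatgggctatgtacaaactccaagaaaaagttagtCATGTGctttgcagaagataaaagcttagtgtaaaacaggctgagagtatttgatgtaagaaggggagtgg
Tyrp1 (chr4:80833963-80834262, plus strand): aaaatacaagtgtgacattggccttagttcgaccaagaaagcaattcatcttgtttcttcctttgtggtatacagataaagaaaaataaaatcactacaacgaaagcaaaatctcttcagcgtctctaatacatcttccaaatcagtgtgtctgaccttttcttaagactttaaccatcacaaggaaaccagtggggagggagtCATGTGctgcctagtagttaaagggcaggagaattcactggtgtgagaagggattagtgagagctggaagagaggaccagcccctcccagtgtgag
Dct (chr14:118052197-118052496, minus strand): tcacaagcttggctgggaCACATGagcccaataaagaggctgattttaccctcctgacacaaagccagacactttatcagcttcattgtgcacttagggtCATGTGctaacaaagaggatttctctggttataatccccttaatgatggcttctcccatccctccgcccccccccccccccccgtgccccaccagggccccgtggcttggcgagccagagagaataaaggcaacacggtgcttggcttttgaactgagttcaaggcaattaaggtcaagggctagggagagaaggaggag
Oca2 (chr7:56239509-56239808, plus strand): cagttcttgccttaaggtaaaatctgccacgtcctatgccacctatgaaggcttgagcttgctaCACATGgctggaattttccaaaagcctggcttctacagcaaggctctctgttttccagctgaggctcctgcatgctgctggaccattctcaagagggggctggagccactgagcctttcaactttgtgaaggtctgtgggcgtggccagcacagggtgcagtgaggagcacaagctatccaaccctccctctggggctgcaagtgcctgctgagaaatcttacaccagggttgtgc
Mc1r (chr8:123406832-123407131, plus strand): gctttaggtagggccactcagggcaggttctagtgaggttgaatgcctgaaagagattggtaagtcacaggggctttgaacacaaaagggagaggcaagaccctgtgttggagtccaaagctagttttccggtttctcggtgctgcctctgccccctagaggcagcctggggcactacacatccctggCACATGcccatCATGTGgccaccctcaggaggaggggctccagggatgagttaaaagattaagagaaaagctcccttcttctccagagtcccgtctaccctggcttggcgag

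All 6 promoters held the hexamer on either strand, as did 14.2% of the 32851 promoters of the table. Counted from the gene's start to the motif's first base, it lay at -21 in Tyr, at -46 in Tyrp1, at -232 and -150 in Dct, at -186 in Oca2, at -62 and -51 in Mc1r and at -13 in Slc24a5. Dct and Mc1r thus carried it on both strands. The other E-box form, CACGTG, was in 7.15% of all promoters and in 0 of the 6. These matches describe letters in this window and say nothing about binding.

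The loci on mm9 are chr7:94575915-94641921 for Tyr, chr7:63495141-63791887 for Oca2 and chr7:95578783-95640082 for Rab38, all on chromosome 7. Those of Tyrp1 (chr4:80480134-80497622), Dct (chr14:118412012-118451468), Mlana (chr19:29772431-29782796), Slc45a2 (chr15:10930476-10958988) and the X-linked Gpr143 (chrX:149216464-149243189) lie apart. The entry of Slc24a5 (chr2:124893863-124949396) spans its neighbour Myef2 as well.

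In RPE/choroid the enzymes were among the most abundant pigment transcripts. Levels are compared between genes in the authors' FPKM (fragments per kilobase of transcript per 1000000 fragments), as mean ± SD of 3 wild-type libraries. Dct, which encodes dopachrome tautomerase, stood highest at 2380 ± 143 FPKM. Tyrp1, the tyrosinase-related protein that stabilises tyrosinase, followed at 1295 ± 86.4 FPKM. Mlana, a melanosome membrane protein that binds the fibril protein Pmel in human cells, was at 760 ± 18.2 FPKM. Tyr itself, the rate-limiting enzyme, was lower at 235 ± 63.3 FPKM, a level that overlapped that of the calcium exchanger gene Slc24a5 at 220 ± 37.6 FPKM. The melanosome transporter genes Oca2 and Slc45a2, both known to influence melanosomal pH, had 94.9 ± 1.15 and 78.7 ± 1.27 FPKM. Rab38, a GTPase that carries Tyrp1 and tyrosinase to the melanosome, was at 66.7 ± 11.2 FPKM and overlapped Slc45a2. Gpr143, the ocular albinism receptor of the melanosome membrane, was at 43.2 ± 0.69 FPKM. Mc1r, the melanocortin receptor of melanocytes, was lowest at 1.125 ± 0.261 FPKM. FPKM did not always follow the counts: Tyr in knock-in RPE/choroid had 156, 189 and 331 FPKM but 560, 610 and 651 CPM, so genotypes are compared below in counts.

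**Figure D1:**
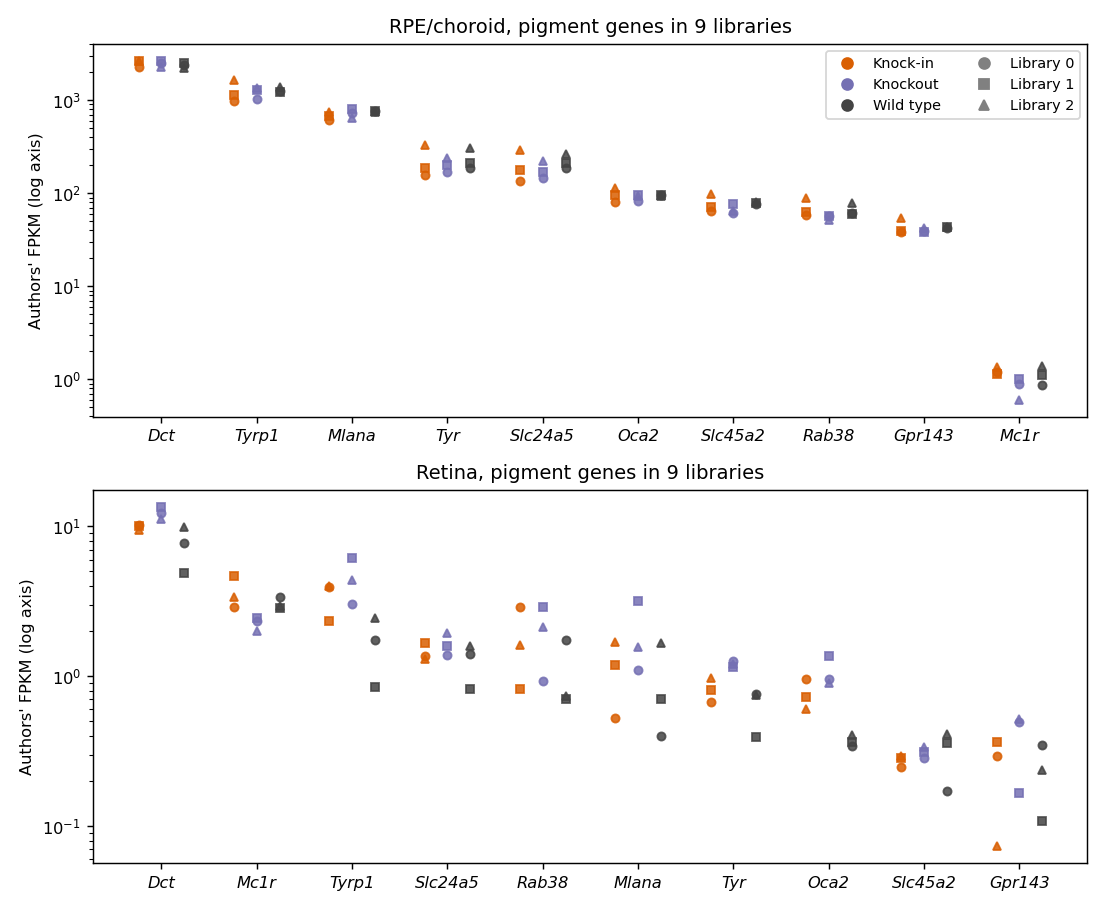
Authors' FPKM (log axis) of the 10 pigment genes in each library, RPE/choroid above and retina below, ordered by the wild-type mean; colours give the genotype and symbols the library number. In RPE/choroid the genotypes lie close together on this axis from Dct at 2380 FPKM to Mc1r at 1.125 FPKM. In FPKM, knockout libraries of Rab38 lie below all others there, those of Mc1r below the knock-in, and those of Slc45a2 and Gpr143 just below wild type. In CPM, knockout and wild-type libraries of Rab38, Slc45a2 and Gpr143 overlapped. The share of all genes that lie apart in FPKM was not computed. In retina Mc1r moves to the second place behind Dct.

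Between tissues, 9 of the 10 genes were higher in wild-type RPE/choroid than in wild-type retina and 1, Mc1r, was lower. All 10 passed the test, in a comparison in which 85.9% of the 16222 genes tested were called (44.0% higher and 41.9% lower). Tests were edgeR's quasi-likelihood test with Benjamini-Hochberg adjustment over all genes tested and a threshold of 0.05. Rab38 had the smallest rise (log2 5.92, SE 0.431, 60.7-fold). Above it lay Slc24a5 (log2 7.21), Gpr143 (7.56), Slc45a2 (7.98), Oca2 (7.99), Tyr (8.26), Dct (8.39), Tyrp1 (9.56, 95% interval 8.68 to 10.44) and Mlana (9.89, 95% interval 9.26 to 10.51). Mlana and Gpr143 had 2 to 6 and 2 to 7 fragments in the wild-type retinal libraries and passed the filter on low counts only through RPE/choroid, so the size of their differences is uncertain. The labels of the tissues held for other markers too, with 18 of 18 RPE markers and 7 of 7 melanocyte and glial markers higher in RPE/choroid and 12 of 12 rod markers lower.

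Mc1r was the exception among the pigment genes. It had 4.05 CPM in wild-type RPE/choroid and 10.03 CPM in wild-type retina on a common scale (log2 -1.31, SE 0.209, adjusted p = 1.81e-05). Its locus (mm9, chr8:125930982-125934647) ends 816 bases before that of Tubb3, a neuronal tubulin gene that was also lower in RPE/choroid (log2 -4.72, SE 0.638), and begins 2908 bases after that of Tcf25. Whether the fragments were counted by strand is not given in the sources used here, and a contribution of neighbouring transcripts to the Mc1r count was not tested.

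The retinal signal of the pigment genes other than Mc1r was small against RPE/choroid. In wild type, retinal means were 0.11% of the RPE/choroid mean for Mlana, 0.133% for Tyrp1, 0.298% for Dct, 0.324% for Tyr, 0.394% for Oca2, 0.407% for Slc45a2, 0.513% for Gpr143, 0.672% for Slc24a5 and 1.58% for Rab38, against 248% for Mc1r. Thus 8 of the 10 lay under 1% and Rab38 was the highest of those under 100%. The percentages of Mlana and Gpr143 rested on 2 to 6 and 2 to 7 fragments per wild-type retinal library and are uncertain. The median over the 10 was 0.4%, beside 1.48% over 18 RPE markers that take no part in pigment synthesis, whose range was 0.21% to 52.6%.

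The order of levels in wild-type retina was another one. Dct was again first at 7.53 ± 2.52 FPKM, and Mc1r, last in RPE/choroid, was second at 3.05 ± 0.284 FPKM. Their libraries did not overlap each other or those of any other member. Below them came Tyrp1 (1.68 ± 0.793 FPKM), Slc24a5 (1.28 ± 0.406), Rab38 (1.06 ± 0.592), Mlana (0.923 ± 0.666) and Tyr (0.637 ± 0.213), each overlapping the next. Oca2 (0.370 ± 0.0314), Slc45a2 (0.314 ± 0.127) and Gpr143 (0.232 ± 0.121) were lowest, with overlap among the 3 and between Oca2 and Tyr.

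**Figure D2:**
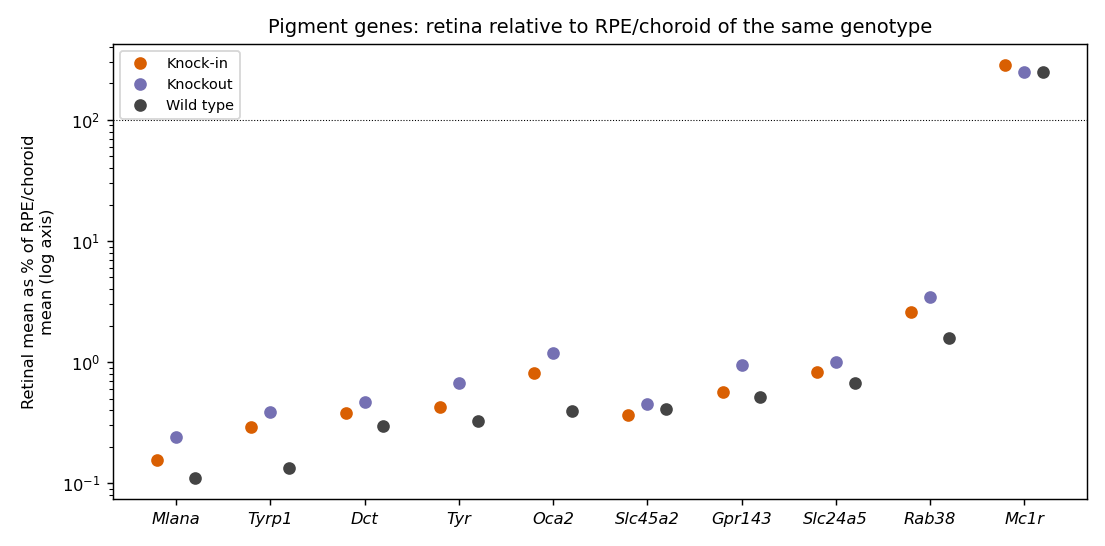
Mean retinal CPM of each pigment gene as a percentage of its mean CPM in RPE/choroid of the same genotype (log axis; the dotted line marks 100%), with 3 libraries in each mean. Mc1r alone lies above the line, and for Oca2 the percentage is 0.807 in knock-in, 1.18 in knockout and 0.394 in wild type.

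In RPE/choroid, the pigment genes showed no called difference between genotypes. Of the 10, 0 passed in knock-in against wild type (0.0647% of 15454 genes called), 0 in knockout against wild type (0.472%) and 0 in knock-in against knockout (0.453%). At an unadjusted p under 0.05 the counts were 0, 1 (Slc24a5) and 1 (Rab38), beside 854, 2401 and 1890 of all 15454 genes tested. DESeq2 called 0 in each, where it called 0.285%, 3.44% and 2.03% of all genes. Their median log2 difference was -0.05 in knock-in against wild type, -0.14 in knockout against wild type and 0.09 in knock-in against knockout, against -0.004, -0.015 and 0.004 over all genes tested. Knock-in and wild-type libraries overlapped for all 10, while 9.84% of all genes tested did not overlap. In such bulk tissue, fewer cells of a type and less RNA per cell cannot be told apart.

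The enzymes varied little there. Tyr had 560, 610 and 651 CPM in knock-in, 606, 621 and 498 CPM in knockout and 632, 639 and 641 CPM in wild type. Tyrp1 had 2842, 3148 and 3446 CPM in knock-in, 2926, 3447 and 2885 CPM in knockout and 3569, 3343 and 3085 CPM in wild type. Dct had 5198, 5712 and 5823 CPM in knock-in, 5604, 5813 and 5091 CPM in knockout and 5463, 5564 and 4962 CPM in wild type. For Tyrp1 and Dct the 3 groups overlapped, and for Tyr the knockout libraries lay below the wild-type libraries while the knock-in overlapped both. The 95% interval of the log2 difference of knockout from wild type was -0.35 to 0.05 for Tyr, -0.36 to 0.14 for Tyrp1 and -0.18 to 0.27 for Dct, and that of knock-in from wild type was -0.28 to 0.13, -0.33 to 0.17 and -0.16 to 0.29.

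Among the membrane and trafficking genes, Slc24a5 came nearest to the threshold. It had 272, 314 and 352 CPM in knock-in, 287, 291 and 271 CPM in knockout and 357, 357 and 316 CPM in wild type. Knockout libraries lay below wild-type libraries without overlap (log2 -0.28, SE 0.0928, adjusted p = 0.199). Slc24a5 and Tyr were the 2 members lower without overlap in this comparison, as were 11.5% of all genes tested. Rab38 had 87.6, 90.7 and 104 CPM in knock-in, 86.4, 82.3 and 62.5 CPM in knockout and 89.4, 85.9 and 102 CPM in wild type (knock-in against knockout log2 0.29, SE 0.124, adjusted p = 0.392). Its knock-in libraries all lay above its knockout libraries, as did those of Mc1r and those of 11.3% of all genes tested.

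Mc1r had 3.90, 3.83 and 4.71 CPM in knock-in, 2.94, 3.51 and 2.14 CPM in knockout and 2.87, 3.98 and 5.05 CPM in wild type, the widest intervals of the 10 (knockout against wild type log2 -0.48, 95% interval -1.02 to 0.07). The other members, Mlana, Oca2, Slc45a2 and Gpr143, ran from log2 -0.22 to 0.17 over the 3 comparisons. Of the 9 libraries, knockout library 2 was the lowest for 6 members (Tyr, Slc45a2, Slc24a5, Mc1r, Gpr143 and Rab38), and knock-in library 2, the female one, was the highest for 5 (Tyr, Dct, Oca2, Slc45a2 and Rab38). The X-linked Gpr143 had 52.0, 56.2 and 62.8 CPM in knock-in, against 58.1, 64.8 and 53.3 CPM in wild type, with overlap.

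**Figure D3:**
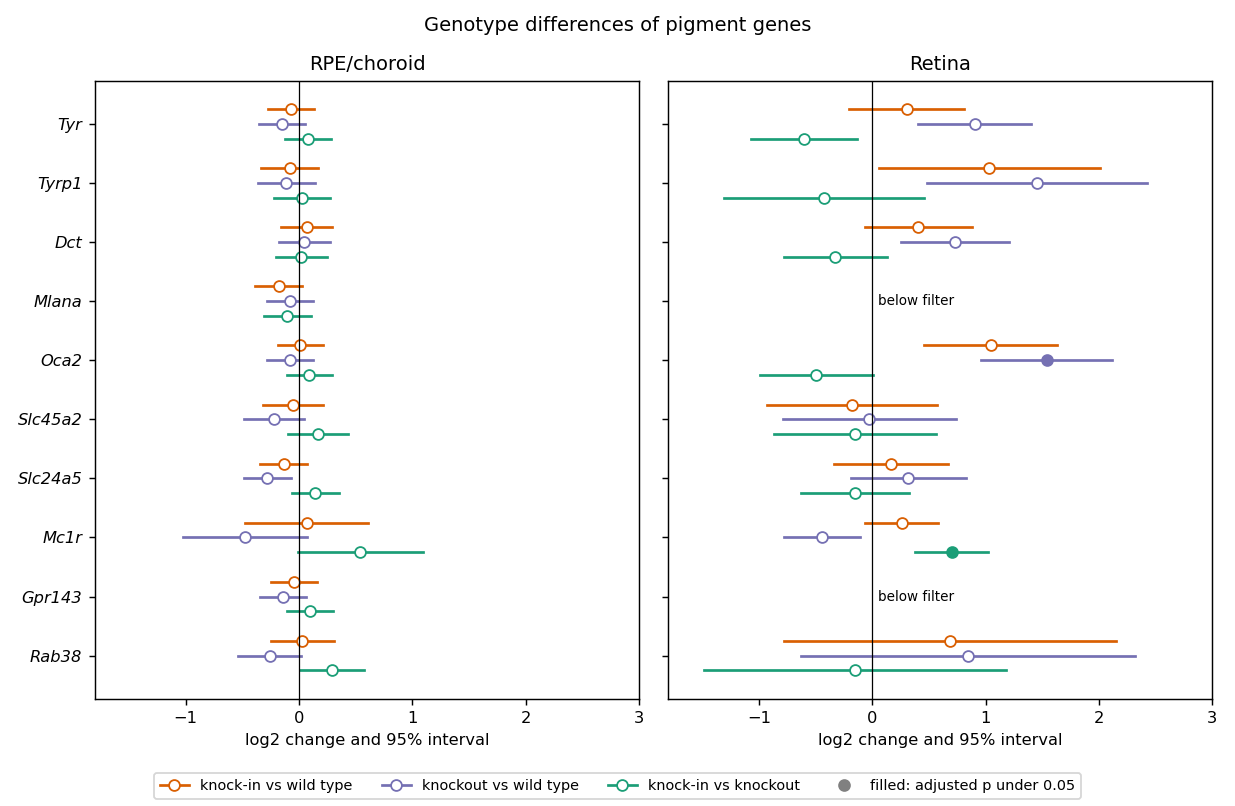
log2 difference of each pigment gene with its 95% interval for knock-in against wild type, knockout against wild type and knock-in against knockout, in RPE/choroid (left) and retina (right); filled points have an adjusted p under 0.05. Filled are only Oca2 (1.54, knockout against wild type) and Mc1r (0.70, knock-in against knockout), both in retina.

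In knockout retina, Oca2 rose, while the 3 enzymes stood at log2 0.73 to 1.46 against wild type without passing the test. Of the 10 genes, 1 rose (Oca2), 0 fell, 7 were not past the threshold and 2, Mlana and Gpr143, were under the filter on low counts, in a comparison in which 0.980% of 14699 genes were called (0.483% higher and 0.497% lower). An unadjusted p under 0.05 was reached by 5 (Oca2, Tyr, Tyrp1, Dct and Mc1r), and by 1839 of all 14699 genes tested. DESeq2 called 3 (Oca2, Dct and Tyrp1) where it called 2.22% of all genes. Over the 8 genes tested the median log2 difference was 0.79, against -0.003 over all genes tested. In knock-in against wild type 0 of 8 passed (0.265% of all genes called), also with DESeq2 (0.782% of all genes called). There 2 (Oca2 and Tyrp1) had an unadjusted p under 0.05, as did 1250 of all 14699 genes tested. The median was 0.36, against 0.001 over all genes tested. The wild-type libraries are shared by both comparisons.

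Oca2 had 2.85, 2.22 and 1.76 CPM in knock-in retina, 2.86, 4.14 and 2.54 CPM in knockout retina and 1.02, 1.10 and 1.21 CPM in wild-type retina. These rested on 34 to 66, 32 to 91 and 14 to 16 fragments per library. The wild-type libraries were the 3 lowest and did not overlap either mutant group, whose ranges overlapped each other. Against wild type, Oca2 was 2.9-fold higher in knockout (log2 1.54, SE 0.268, adjusted p = 0.0133, 3 of 3 libraries above every wild-type library). In knock-in it stood at log2 1.04 (SE 0.272, adjusted p = 0.185), and knock-in against knockout at log2 -0.49 (SE 0.232, adjusted p = 0.431). With sex in the model it stayed called in knockout (log2 1.46, SE 0.287, adjusted p = 0.0268). The call in knockout was lost without knockout library 1 (log2 1.29, adjusted p = 0.0861), wild-type library 0 (1.48, 0.0773) or wild-type library 1 (1.54, 0.0836).

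For the other 2 transporter genes no retinal comparison passed. Slc45a2 had 0.647, 0.753 and 0.776 CPM in knock-in retina, 0.740, 0.819 and 0.874 CPM in knockout and 0.4464, 0.9563 and 1.12 CPM in wild type. Slc24a5 had 2.63, 3.22 and 2.17 CPM in knock-in, 2.71, 3.095 and 3.18 CPM in knockout and 2.81, 1.62 and 2.76 CPM in wild type. Mutant and wild-type groups overlapped for both. Knockout against wild type was log2 -0.02 (95% interval -0.78 to 0.74) for Slc45a2 and log2 0.32 (-0.19 to 0.82) for Slc24a5. Slc24a5 shares its locus in the tables with Myef2, which stood at log2 -0.07 in the same comparison.

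**Figure D4:**
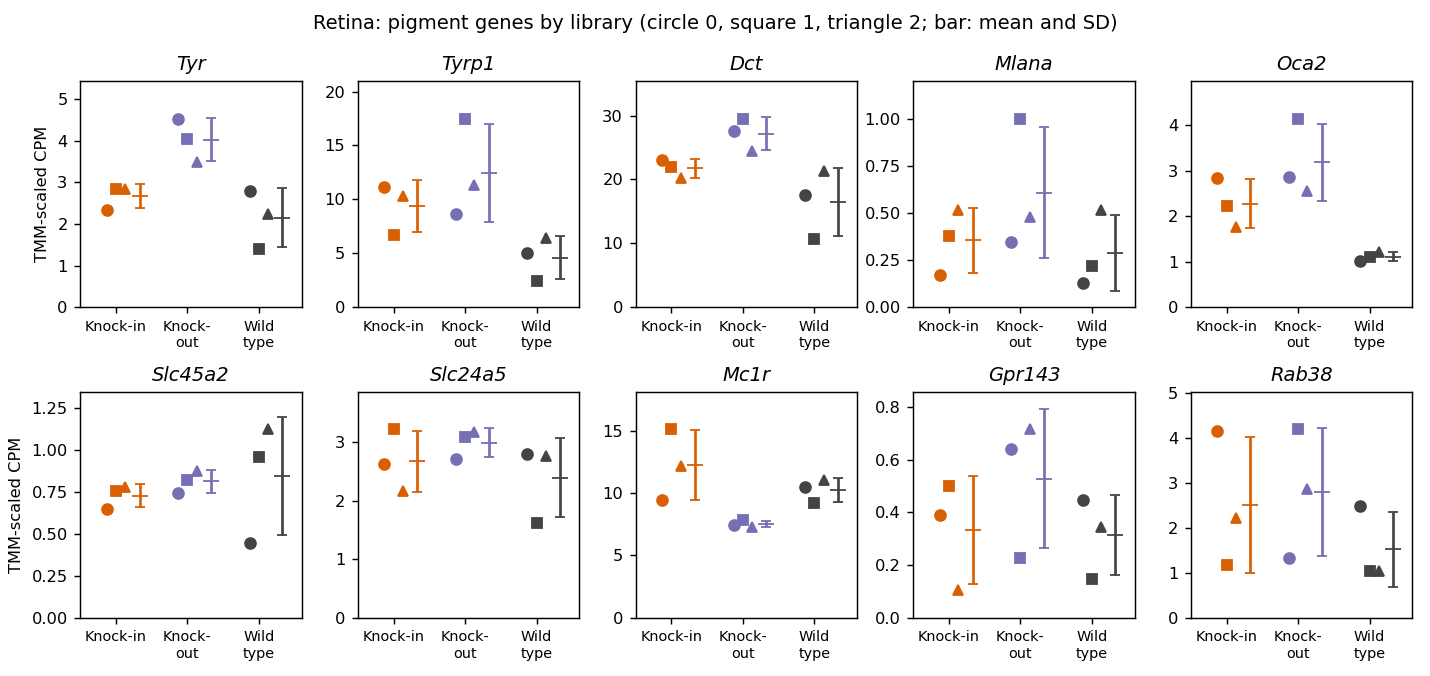
TMM-scaled CPM of each pigment gene in the 9 retinal libraries by genotype, with the mean and SD of 3 libraries beside the points; each panel has its own linear axis from 0. In the Oca2 panel the 3 wild-type libraries (1.02 to 1.21 CPM) lie below all 6 mutant libraries, and in the Rab38 panel the libraries of every genotype spread and overlap.

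Of the enzymes, Tyr had 2.33, 2.84 and 2.85 CPM in knock-in retina, 4.54, 4.05 and 3.50 CPM in knockout retina and 2.81, 1.40 and 2.24 CPM in wild-type retina. All knockout libraries lay above the other 6 (knockout against wild type log2 0.91, SE 0.232, adjusted p = 0.0976; knock-in against knockout log2 -0.60, SE 0.217, adjusted p = 0.254). Tyrp1 had 11.1, 6.65 and 10.3 CPM in knock-in, 8.63, 17.5 and 11.3 CPM in knockout and 4.97, 2.43 and 6.37 CPM in wild type. Its wild-type libraries were the 3 lowest (knockout log2 1.46, SE 0.413, adjusted p = 0.214; knock-in log2 1.03, SE 0.414, adjusted p = 0.561). Dct had 23.1, 22.0 and 20.2 CPM in knock-in, 27.6, 29.5 and 24.4 CPM in knockout and 17.5, 10.7 and 21.3 CPM in wild type. Knockout libraries were again the highest, and the knock-in overlapped wild type (knockout log2 0.73, SE 0.207, adjusted p = 0.183; knock-in log2 0.41, SE 0.206, adjusted p = 0.654). With DESeq2, Dct (adjusted p = 0.00538) and Tyrp1 (adjusted p = 0.0439) were called in knockout.

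Over all 10 genes, knockout and wild-type libraries did not overlap for Oca2, Tyr, Tyrp1 and Dct, which were higher in knockout, and for Mc1r, which was lower. Among all genes tested, 8.68% lay higher and 9.19% lower without overlap. Knock-in and wild-type libraries did not overlap for Oca2 and Tyrp1, both higher in knock-in, as were 7.34% of all genes tested. Between knock-in and knockout, Tyr and Dct were lower in knock-in without overlap (8.74% of all genes tested) and Mc1r was higher (8.76%).

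Mc1r had its lowest retinal values in knockout. It had 9.45, 15.1 and 12.2 CPM in knock-in retina, 7.40, 7.83 and 7.31 CPM in knockout retina and 10.5, 9.20 and 11.03 CPM in wild-type retina. Knockout libraries were the 3 lowest of the 9, while knock-in and wild type overlapped. Mc1r was 1.63-fold higher in knock-in than in knockout (log2 0.70, SE 0.15, adjusted p = 0.0346, 3 of 3 libraries above), the only 1 of 8 pigment genes tested that passed there, where 1.26% of all genes were called (0.680% higher). DESeq2 also called Mc1r alone of the 8, with 2.20% of all genes called. Its level in knockout against wild type was log2 -0.44 (SE 0.155, adjusted p = 0.244) and in knock-in against wild type log2 0.26 (SE 0.15, adjusted p = 0.691). Over the 8 genes the median log2 of knock-in against knockout was -0.24, against -0.002 over all genes tested. The call for Mc1r was lost when sex was added to the model (log2 0.67, adjusted p = 0.0536), in a fit of the compared groups alone (log2 0.70, adjusted p = 0.0686), without knockout library 0, 1 or 2 (adjusted p = 0.0825, 0.111 and 0.111) and without knock-in library 1 or 2 (adjusted p = 0.161 and 0.0835). The neighbouring Tubb3 stood at log2 -0.01 and Tcf25 at log2 0.04 in knock-in against knockout.

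Rab38, Gpr143 and Mlana gave little to compare in retina. Rab38 had 4.14, 1.17 and 2.23 CPM in knock-in retina, 1.33, 4.19 and 2.86 CPM in knockout and 2.49, 1.03 and 1.03 CPM in wild type. The 3 groups overlapped (knockout against wild type log2 0.85, SE 0.634, adjusted p = 0.643). Gpr143 had 2 to 13 fragments and Mlana 2 to 22 fragments per library, under the filter. With no filter, knockout against wild type stood at log2 0.66 (SE 0.605) for Gpr143 and at log2 1.18 (SE 0.594) for Mlana, and neither was called. A difference in Gpr143 or Mlana was thus not detected. In the authors' deposited table Mlana had p = 0.0352 and q = 0.567 in knockout against wild type.

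The knockout effect differed between the tissues for 1 of the 10 genes. Mlana and Gpr143, under the filter in retina, entered this test and that of the knock-in effect only through RPE/choroid. Both tests thus say little of these genes. For Oca2 the effect in RPE/choroid minus that in retina was log2 -1.62 (SE 0.253, adjusted p = 0.0158), in a test in which 0.136% of 16222 genes were called. In RPE/choroid Oca2 had 246, 276 and 299 CPM in knock-in, 246, 276 and 247 CPM in knockout and 289, 279 and 245 CPM in wild type, with full overlap. Tyr (log2 -1.05, SE 0.221, adjusted p = 0.0814) and Tyrp1 (log2 -1.55, SE 0.417, adjusted p = 0.167) were next and did not pass. Without wild-type RPE/choroid library 2, which held rod transcripts, both Oca2 and Tyr (adjusted p = 0.0313) were called. Without wild-type retinal library 0 Oca2 was lost (adjusted p = 0.0733) and Tyr was called (adjusted p = 0.0364), and without wild-type retinal library 1 neither was (adjusted p = 0.0693 for Oca2). For the knock-in effect 0 of 10 passed (0.0555% of all genes called). An unadjusted p under 0.05 was reached by 2, Oca2 (log2 -1.05, SE 0.258, adjusted p = 0.398) and Tyrp1 (log2 -1.13, SE 0.417, adjusted p = 0.815), and by 970 of all 16222 genes tested.

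Some RPE markers were also higher in knockout retina. Of 18 RPE markers, 4 rose in knockout against wild type (Rpe65 log2 1.48, Rgr 1.44, Slc6a20a 1.16 and Lrat 1.12) and 0 fell. Among all genes tested, 0.483% were called higher and 0.497% lower. The median of the 18 was 0.63, against -0.003 over all genes tested. Rpe65, the retinoid isomerase of the RPE, had 10.6, 10.5 and 11.7 CPM in knock-in retina, 23.0, 13.7 and 14.2 CPM in knockout retina and 6.19, 5.66 and 6.46 CPM in wild-type retina. Rpe65 was highest in knockout library 0, as was Tyr, while Oca2, Tyrp1 and Dct were highest in knockout library 1. Like Oca2, Rpe65 (log2 -1.61, SE 0.22, adjusted p = 0.00565) and Rgr (log2 -1.67, SE 0.239, adjusted p = 0.00976) passed the test of the tissue difference. In knock-in against wild type 0 of the 18 passed (0.265% of all genes called), with a median of 0.37, against 0.001 over all genes tested. Without overlap, 9 lay higher and 1 lower in knock-in than in wild type, where 7.34% of all genes tested lay higher. In knockout 11 lay higher and 1 lower than in wild type, beside 8.68% and 9.19% of all genes tested. The sum of the 18 was 983 to 991 CPM in knock-in retina, 912 to 1006 CPM in knockout retina and 904 to 997 CPM in wild-type retina. It was made up mostly of Rlbp1 (391 to 549 CPM over the 9 libraries), Trpm3 and Krt18, whose retinal levels in wild type were 52.6%, 32.9% and 32.0% of those in RPE/choroid, so the sum says little of genes at the level of Rpe65.

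Markers of the iris and ciliary body were high in some mutant libraries. The summed level of 8 such markers was 216, 70.4 and 144 CPM in knock-in retina, 68.2, 237 and 127 CPM in knockout retina and 63.8, 69.9 and 76.2 CPM in wild-type retina. It was made up mostly of the collagen genes Col9a1 and Col18a1. Col9a1 alone had 36.7, 42.1 and 48.4 CPM in wild-type retina. Fibroblast and sclera markers (6 genes) summed to 67.1, 16.9 and 38.1 CPM in knock-in, 20.4, 61.9 and 33.9 CPM in knockout and 15.4, 21.5 and 27.9 CPM in wild type. In both sums knock-in library 0 and knockout library 1 stood highest within their genotypes. The same 2 libraries stood highest within their genotypes for Oca2, Tyrp1, Dct and Rab38, but not for the other members. Knock-in library 0 was the lowest of its genotype for Tyr, Mlana, Slc45a2 and Mc1r. Knockout library 1 was not the highest for Tyr, Slc45a2 or Slc24a5 and was the lowest for Gpr143. Of these lists 0 of 6 and 0 of 5 genes tested passed in knockout against wild type, with medians of log2 1.23 and 0.04, and in knock-in against wild type 0 passed, with medians of 1.19 and 0.75. Lens markers (15 genes) summed to 4916, 280 and 355 CPM in knock-in, 365, 4374 and 10770 CPM in knockout and 548, 148 and 36.2 CPM in wild type, and 0 of the 15 passed in either mutant. The 7 melanocyte and glial markers summed to 33.3 to 36.3 CPM in knock-in, 28.9 to 33.5 CPM in knockout and 29.2 to 36.3 CPM in wild type, with the defining Sox10 at 0.221 to 0.828 CPM over the 9 retinal libraries and Pax3 listed at 0 in 7 of them. The part of RPE, iris, ciliary body or lens RNA in the differences of pigment genes was not tested.

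**Figure D5:**
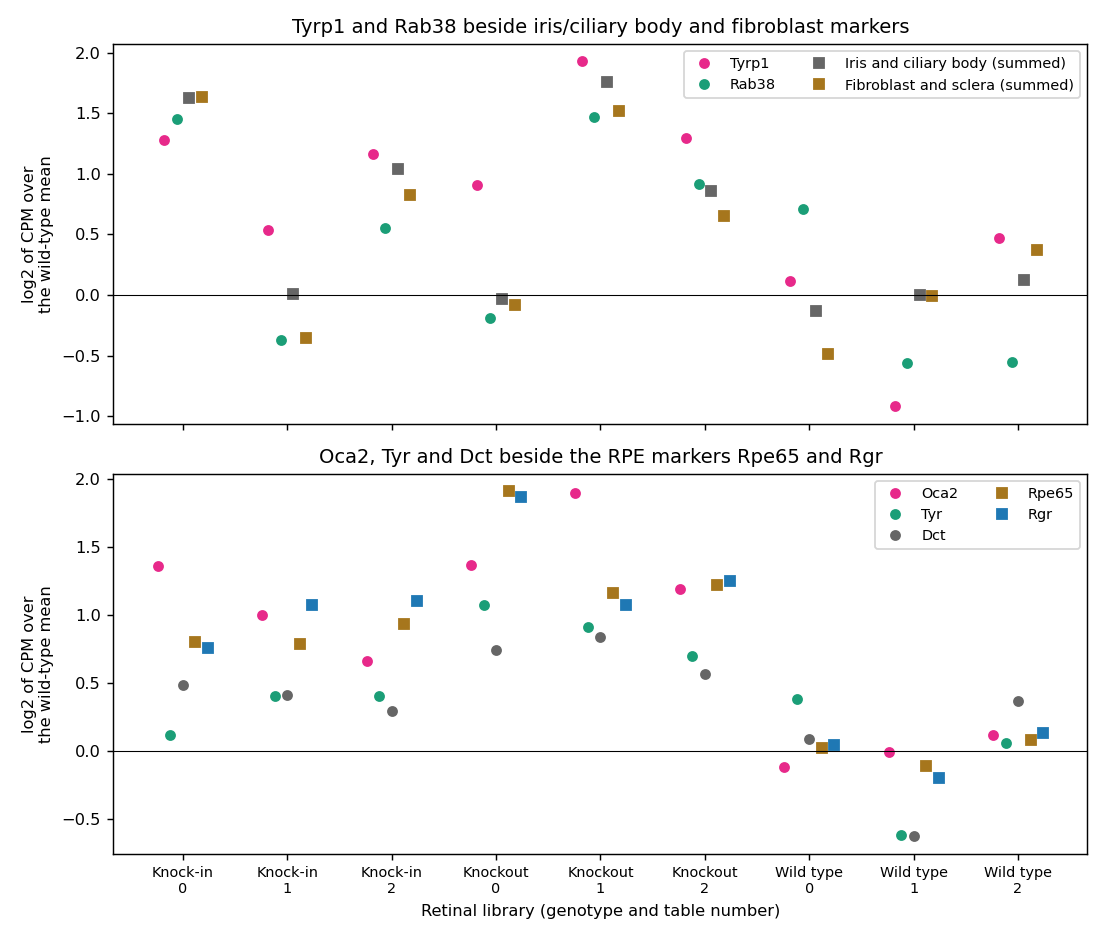
Level of each gene or summed marker list in the 9 retinal libraries as log2 of its CPM over the wild-type mean, with Tyrp1 and Rab38 beside iris/ciliary body and fibroblast sums above, and Oca2, Tyr and Dct beside the RPE markers Rpe65 and Rgr below. In the upper panel knock-in library 0 and knockout library 1 are high in all 4 measures. In the lower panel they are the highest of their genotypes for Oca2 and Dct, but not for Tyr, Rpe65 or Rgr. There Oca2, Rpe65 and Rgr of all mutant libraries lie above wild type.

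Of the further genes of the pathway few passed. Of 18 regulators of pigment cells, among them the transcription factor genes Mitf and Sox10, 17 were in the tables and 0 of 16 passed in any retinal comparison and 0 of 17 in any RPE/choroid comparison. Their median log2 in knockout retina was 0.04, and the estimate farthest from 0 was that of the ligand gene Edn3 (log2 1.80, SE 0.63, adjusted p = 0.28). Mitf, the master regulator of pigment cells, had 12.1, 11.5 and 12.4 CPM in knock-in, 13.4, 13.4 and 12.4 CPM in knockout and 10.8, 13.8 and 9.48 CPM in wild type. Of 32 genes of the melanosome matrix, of organelle biogenesis and of transport, 31 were tested in retina. Gpnmb, a melanosomal glycoprotein also made by macrophages, rose in knockout against wild type (log2 0.83, SE 0.177, adjusted p = 0.0411) and was lower in knock-in than in knockout (log2 -0.77, SE 0.17, adjusted p = 0.0397). It had 6.00, 5.64 and 5.74 CPM in knock-in, 8.78, 11.3 and 9.53 CPM in knockout and 5.36, 4.12 and 7.32 CPM in wild type. Pldn, which encodes pallidin, a subunit of the BLOC-1 complex, was lower in knock-in than in knockout (log2 -0.51, SE 0.0833, adjusted p = 0.00606). The other 30 genes did not pass in knockout against wild type, nor did any of the 31 in knock-in against wild type, and the median in knockout was 0.03. Without overlap, 7 of the 31 lay higher and 0 lower in knockout than in wild type, beside the 8.68% and 9.19% of all genes tested. The largest estimate there was that of Mlph, which encodes a linker of melanosomes to myosin and was picked after its values were seen. Mlph had 0.388, 0.251 and 0.776 CPM in knock-in, 0.641, 1.59 and 1.51 CPM in knockout and 0.191, 0.0736 and 0.345 CPM in wild type (knockout against wild type log2 2.61, SE 0.591, adjusted p = 0.0564). In RPE/choroid 0 of 32 passed in the 3 comparisons of genotypes.

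The authors' deposited table of comparisons had more calls in retina. At a q under 0.05 the authors' deposited table called 4 of the 8 members it tested in knockout against wild type (Oca2, Tyrp1 and Dct at q = 0.00293 each and Tyr at q = 0.0206) where it called 3.44% of all genes tested. Slc45a2 and Gpr143 had no test there in any retinal comparison. For knock-in against wild type the authors' deposited table called 2 (Tyrp1, q = 0.00293, and Oca2, q = 0.0351), with 2.11% of all genes called. For knockout against knock-in it called Mc1r (authors' deposited table, q = 0.00791; 2.34% of all genes). In RPE/choroid the authors' deposited table called 0 of 10 in each comparison, where 2.39%, 2.90% and 2.36% of all genes were called for knock-in against wild type, knockout against wild type and knockout against knock-in, and the lowest q was 0.160, for Rab38 in knockout against knock-in.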

How the data were processed

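Expected counts per gene and library, deposited by the authors before scaling, come from TopHat and Bowtie2 mapping to mm9 and Cufflinks, per the submitters' processing notes; the sources used here do not give versions or the counting strand. Of these values 98.5% (retina) and 98.4% (RPE/choroid) were whole, and all were rounded. FPKM per library and the p-value and q-value of the comparisons were deposited by the authors, per the file headers. FPKM were used for levels between genes and in limma.

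Counts were tested with edgeR 4.0.16 (R 4.3.3; TMM, filterByExpr, robust quasi-likelihood), with all 9 libraries of a tissue in 1 fit and all 18 for tissue contrasts. TMM-scaled CPM were computed per tissue, and over all 18 libraries where tissues are set side by side. SE is the log2 value divided by the square root of F. Models were tested on simulated data. Alternatives were DESeq2 1.42.0, RLE factors, no filter, limma 3.58.1 on log2(FPKM + 1) and log2(FPKM + 0.1), the compared groups alone, the table number as a block, a sex term, and leaving out each library.

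All members are named. Of each further list (pigment regulators, melanosome genes, RPE, melanocyte and glia, rod, iris and ciliary body, lens, endothelium, fibroblast, skeletal muscle and sex markers), up to 4 genes passing with the smallest p were eligible, or up to 2 where none passed; values of Mitf, Pax3 and Sox10 are given as lineage markers, and Tubb3, Tcf25 and Myef2 as neighbours. Members and lists were chosen with earlier results of these data known. Between genotypes, melanocyte, iris, lens, endothelium, fibroblast, muscle and sex markers had no call in either tissue, and in knock-in against knockout retina the rod gene Sag and the RPE gene Mertk were called lower. The gene Asip was not matched. Positions are the tables' (mm9); promoter sequences are RefSeq's (GRCm38.p6).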

Additional observations from a re-analysis of the deposited data

Results flagged for a closer look

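The effect of the knockout differed between the tissues, by the interaction test, for 1 pigment gene and for 2 RPE markers read beside it. For Oca2, at log2 -0.08 in RPE/choroid and 1.54 in retina against wild type, the effect in RPE/choroid minus that in retina was log2 -1.62 (SE 0.253, adjusted p = 0.0158). For Rgr, an opsin of the RPE, it was log2 -1.67 (SE 0.239, adjusted p = 0.00976). For Rpe65 it was log2 -1.61 (SE 0.22, adjusted p = 0.00565).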

How the results depend on the processing

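In RPE/choroid, 0 of 10 pigment genes were called in any comparison of genotypes under every alternative run, and all 10 differed between wild-type tissues with RLE factors, no filter, the replicate block and each library left out, the alternatives run there. In retina, knockout against wild type called 1 pigment gene, with DESeq2 3, with limma on log2(FPKM + 1) or log2(FPKM + 0.1) 0 (Oca2 log2 0.59, adjusted p = 0.0679, and 1.30, 0.0531), and 0 to 1 leaving out each library. Knock-in against knockout called 1, but 0 with a sex term, with either limma fit (Mc1r adjusted p = 0.309 and 0.29) or in the compared groups alone, and 0 to 1 leaving out each library. The tissue difference of the knockout effect called 1, and 0 to 2 leaving out each library. Knock-in against wild type called 0 throughout. No called value changed direction, and the causes of these changes were not tested.

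With the table number as a replicate block no member's call changed (Oca2 log2 1.51, adjusted p = 0.0147, Mc1r 0.69, adjusted p = 0.0349, Oca2 tissue difference -1.61, adjusted p = 0.0317). Whether the table numbers pair the samples is not stated. Correlations of same-numbered libraries, in deviations from their group means, ran from -0.508 to 0.252 in retina and -0.145 to 0.179 in RPE/choroid. Those of libraries with different numbers ran from -0.397 to 0.521 and from -0.25 to 0.28. With 3 libraries in each group mean, these values cannot decide whether the numbers pair the samples. Calls over all genes moved more: retina knock-in against wild type 39 (9 to 115), knockout against wild type 144 (27 to 327), knock-in against knockout 185 (20 to 324), and in RPE/choroid, in the same order, 10 (2 to 44), 73 (17 to 532) and 70 (23 to 313), lowest in limma or sex-term fits and highest with DESeq2. The tissue difference of the knock-in effect called 9 (4 to 11), and 2 to 10 leaving out each library, with 2 without knock-in retinal library 2. Leaving out each library gave 53 to 253 in knockout against wild type in retina and 22 to 462 in RPE/choroid, and 9 to 337 for the tissue difference of the knockout effect (22 with all libraries). The counts of 462 and 337 came without wild-type RPE/choroid library 2. Retinal depth limits Gpr143, Mlana and Slc45a2, which had at most 22 fragments per library.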
